A study of Rattus norvegicus with 24 samples.

Results

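The liver comparison described here covers 12 of the 24 rats of the study, all labelled female and numbered 15 to 72, 6 born to dams that breathed filtered air and 6 born to dams that breathed ozone. The rule that picks the 12 uses the rat number in the library name and the treatment label, and no measured value. The air-dam rats carry the numbers 15, 16, 17, 18, 22 and 23, and the ozone-dam rats the numbers 63, 65, 66, 68, 69 and 72. The remaining 12 rats of the study, labelled male, have a separate count table.

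Dams inhaled ozone at 0.8 ppm, or filtered air, for 4 hours on gestation days 5 and 6. All 12 offspring also breathed ozone themselves, weekly after weaning, at 0.4 ppm in postnatal week 5 and at 0.8 ppm in the next sessions of weeks 6 and 7, so the treatment labels read Air + Ozone for the controls and Ozone + Ozone for the other group. The comparison is therefore between 2 maternal exposures in young that both breathed ozone, and offspring that breathed only air are not analysed here. Livers were taken at about postnatal day 48. The labels name neither the strain nor the dam of any rat. Whether rats of a group are littermates is not given, and p-values measure the spread between these 12 rats taken as independent.

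Ozone is an oxidant gas that reacts in the fluid lining the airways, and little of it is thought to pass beyond the lung. In rats, acute inhalation is known to raise circulating stress hormones, and these act on glucose and lipid metabolism in the liver. Gestation days 5 and 6 fall around implantation of the rat embryo, before the liver forms. The liver supplies most plasma proteins, stores and releases glucose, and makes and oxidises fatty acids. Its transcriptome differs between the sexes, in part through the timing of growth hormone release.

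The rows of the table are Ensembl gene IDs that the files do not pair with names, and 0 of its 18056 IDs could be matched to a symbol in the RefSeq table at hand. Genes therefore go without names, nothing is said of pathways, and 4 genes are given by ID. The tissue label and the sex label, which the submitters placed under a tag called genotype, were not checked against marker genes for the same reason. Library totals lay between 9210458 and 13779144 counts in the air-dam rats. In the ozone-dam rats they lay between 10125983 and 12094568, apart from rat 72 at 36232072. A floor of 3 counts corresponded to between 0.0828 and 0.326 CPM (counts scaled to a common library size), depending on the library. The 10 most abundant genes took between 19.3% and 24.9% of the counts of a library. Library names come in 2 forms, with 3 air-dam and 2 ozone-dam rats in form 1 and 3 and 4 in form 2, and the form was a covariate in the tests across genes.

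At the level of the whole transcriptome, the maternal exposures lay apart along the leading axis of variation but overlapped. Principal component 1 of log2 CPM held 22.4% of the variance. Its mean score was 16.1 ± 13.2 (SD, n = 6) in the air-dam rats and −16.1 ± 16.8 (SD, n = 6) in the ozone-dam rats. The difference of −32.2 had p = 0.00866 in a two-sided exact permutation test over 924 arrangements, or 0.0260 after Benjamini-Hochberg adjustment over 3 components. Within form 1 the difference was −32.5 (3 against 2 rats), and within form 2 it was −33.2 (3 against 4), with no test inside a form.

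The rats of each group were spread widely along this axis. The air-dam scores were −6.48, 17.7, 24.3, 30.1, 8.45 and 22.6 for rats 15, 16, 17, 18, 22 and 23. The ozone-dam scores were −37.9, −0.205, −30.1, −4.04, −24.7 and 0.339 for rats 63, 65, 66, 68, 69 and 72. Air-dam rat 15 lay below 3 of the ozone-dam rats, and the other 5 air-dam rats lay above all 6. The adjusted p was 0.05 or higher with any one of air-dam rats 16, 17, 18, 22 or 23, or ozone-dam rat 66, left out. It then ranged from 0.0584 to 0.110 in the same exact permutation test, while the difference itself stayed between −34.2 and −29.2. Without air-dam rat 15 the difference was −37.1 with an adjusted p of 0.00649. Without ozone-dam rats 63, 65, 68, 69 or 72 the adjusted p lay between 0.0195 and 0.0325, again by exact permutation. Components 2 and 3 held 13.6% and 11.3% of the variance. Their adjusted p was 0.567 and 0.523 in the same exact permutation test.

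**Figure D1:**
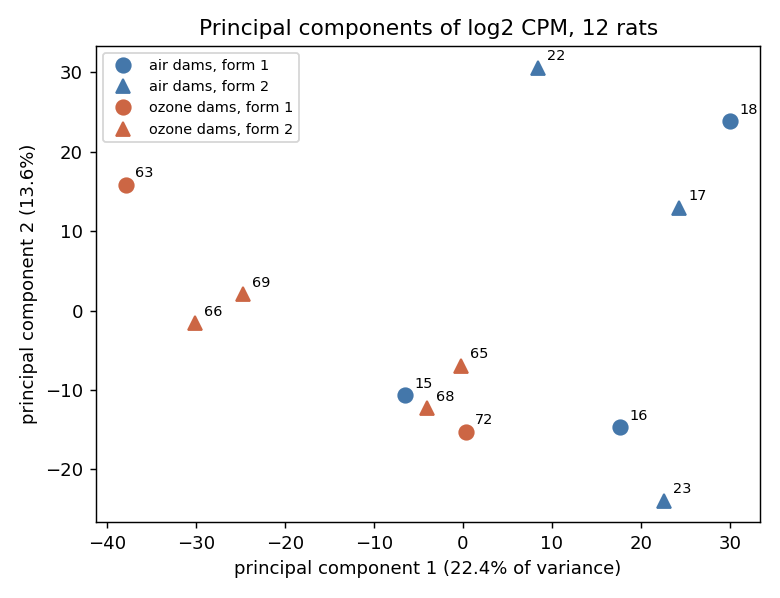
Scores of the 12 livers on principal components 1 (horizontal, 22.4% of variance) and 2 (vertical, 13.6%), in arbitrary units, with rat numbers, colour for the dam's exposure and marker shape for the library-name form. Air-dam rat 15 at −6.48 lies to the left of ozone-dam rats 65, 68 and 72, and every other air-dam rat lies to the right of all ozone-dam rats.

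Few single genes passed the test, and most of them were higher with maternal ozone. Of 12538 genes tested, 34 IDs (0.271%) had an adjusted p under 0.05 in edgeR's quasi-likelihood test with Benjamini-Hochberg adjustment. Of these, 30 IDs (0.239%) rose and 4 (0.0319%) fell. The count was 332 with DESeq2's Wald test, which kept 33 of the 34. There 208 were higher and 124 lower, a weaker lean to the higher side. The count was 14 with rows of identical counts entered once. It was 1 for the same comparison of female-labelled rats in a fit of all 24 rats. The rises ran from 0.68 to 2.51 on the log2 scale, with a median of 1.78 over the 30 IDs and 1.03 over the 20 distinct count rows among them, and the falls from −0.88 to −0.64. Rises and falls of more than 2-fold in the fitted values were 109 and 36 genes, of which 20 IDs that rose (10 distinct count rows) and 0 that fell passed the test. Over all tested genes the median log2 fold change was 0.00, and 50.1% of all tested genes lay on the higher side.

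At an unadjusted p under 0.05 the 2 directions were nearer to balance, while at stricter thresholds most genes were higher. An unadjusted p under 0.05 was reached by 2001 genes, against 627 expected if no gene differed, of which 1057 were higher and 944 lower. Under an unadjusted p of 0.001, 89 were higher and 29 lower. At an adjusted p under 0.10 the count was 109, with 85 higher and 24 lower. At an unadjusted p under 0.05 the larger side changed with the scaling. The higher side held 52.8% of the 2001 genes with TMM factors. It held 49.2% of the corresponding set with DESeq2's size factors and 45.1% with library totals alone. The rows that rose lay at all expression levels. Of the 20 distinct count rows that rose, 1 had a mean under 1 CPM, 5 lay at 1 to 10 CPM, 7 at 10 to 100 CPM, 4 at 100 to 1000 CPM and 3 above 1000 CPM. The corresponding numbers of tested genes were 578, 5174, 5586, 1088 and 112. In the same order of levels, the median standard error of the log2 fold change was 0.36, 0.22, 0.13, 0.13 and 0.15.

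**Figure D2:**
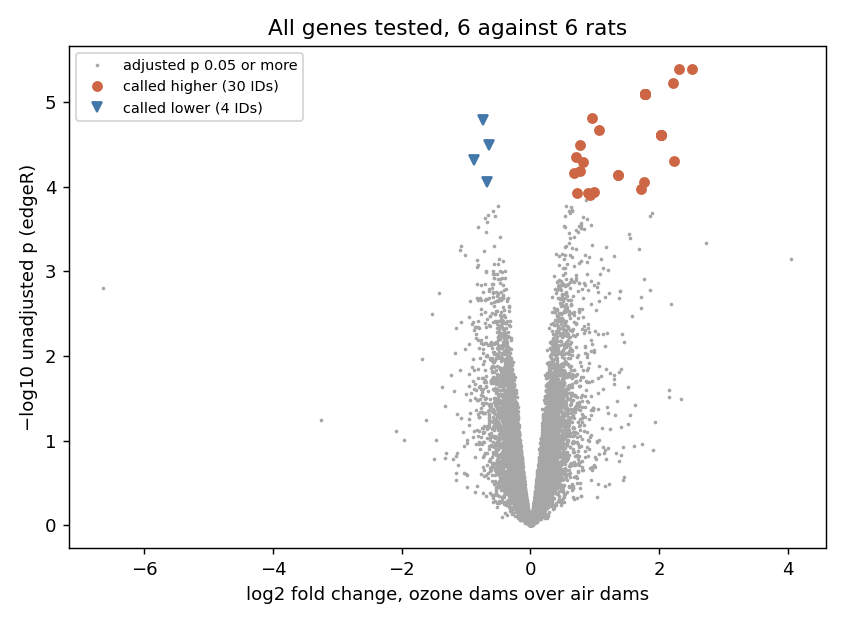
Log2 fold change, ozone dams over air dams (horizontal), against −log10 of the unadjusted p of edgeR's quasi-likelihood test (vertical) for the 12538 genes tested in the 12 livers. The 30 IDs that rose (circles) reach a log2 fold change of 2.51 and the 4 that fell (triangles) stop at −0.88, and points of identical count rows lie on top of each other.

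The group that rose was led by 3 abundant transcripts. ENSRNOG00000047746 stood at 2864, 2638, 1871, 1027, 1318 and 1335 CPM in air-dam rats 15, 16, 17, 18, 22 and 23. In ozone-dam rats 63, 65, 66, 68, 69 and 72 it stood at 7893, 7570, 14563, 15241, 6637 and 8996 CPM. The lowest ozone-dam rat lay above the highest air-dam rat, and rats 66 and 68 stood above the other 4 ozone-dam rats. The means were 1842 ± 758 and 10149.9 ± 3763 CPM (SD, n = 6 each), and the fitted rise was 5.70-fold, a log2 fold change of 2.51 ± 0.33 (SE), with an adjusted p of 0.0102 in edgeR. Its counts were whole in every library. In form 1 the log2 ratio of the group means was 1.96, and in form 2 it was 2.87.

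ENSRNOG00000060518 followed a similar order of rats at a lower level. Its values were 1900, 1795, 1503, 647, 990 and 699 CPM in the air-dam rats, in the order above. In the ozone-dam rats they were 5936, 3794, 7366, 7828, 4763 and 5825 CPM. The groups did not overlap, air-dam rats 15 and 16 were again the highest of their group, and rats 66 and 68 the highest of theirs. The means were 1256 ± 551 and 5919 ± 1523 CPM (SD, n = 6 each), a log2 fold change of 2.30 ± 0.30 (SE), or 4.94-fold, with an adjusted p of 0.0102 in edgeR. Counts of this ID were fractional in 11 libraries, which arises where reads are divided between features, so its level is uncertain where a similar copy exists. The log2 ratio of the group means was 2.02 in form 1 and 2.48 in form 2.

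The other abundant row, also with fractional counts, ranged from 590 to 1658 CPM in the air-dam rats and from 3274 to 6791 CPM in the ozone-dam rats. It rose by 2.21 ± 0.30 (SE) on the log2 scale, with an adjusted p of 0.0102 in edgeR. These 3 rows took 0.432% of a library's counts on average in the air-dam rats and 2.12% in the ozone-dam rats. Across the 12 rats, after the dam's exposure and the library-name form were taken out, their pairwise correlations ran from 0.91 to 0.995. In the fit of all 24 rats, the same comparison of female-labelled rats gave ENSRNOG00000047746 and ENSRNOG00000060518 log2 fold changes of 2.63 and 2.36. Their adjusted p was 0.103 each in edgeR there. It was 0.0536 each in the fit of the rats described here without rat 23. The 3 rows share libraries, and the 2 with fractional counts may share reads, so the correlations are a description of the 12 rats.

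The genes that fell were of moderate abundance and changed less. ENSRNOG00000048152 stood at 61.3, 70.6, 66.3, 75.9, 84.4 and 71.1 CPM in the air-dam rats. In the ozone-dam rats it stood at 42.3, 47.8, 33.3, 52.3, 43.7 and 40.5 CPM. The highest ozone-dam rat, 68, lay below the lowest air-dam rat, 15. The means were 71.6 ± 7.97 and 43.3 ± 6.48 CPM (SD, n = 6 each), and the log2 fold change was −0.73 ± 0.12 (SE), with an adjusted p of 0.0171 in edgeR. It was 0.0555 without rat 22, 0.0536 without rat 23 and 0.0779 for the same female-labelled comparison in the fit of all 24 rats. The log2 ratio of the means was −0.74 in both forms.

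ENSRNOG00000037768 had the smallest spread among ozone-dam rats, relative to its mean, of the 4 IDs given. It stood at 9.68, 9.92, 12.2, 10.8, 12.97 and 11.8 CPM in the air-dam rats and at 7.37, 7.74, 6.93, 6.98, 7.93 and 6.78 CPM in the ozone-dam rats. The groups did not overlap. The means were 11.2 ± 1.31 and 7.29 ± 0.469 CPM (SD, n = 6 each), and the log2 fold change was −0.64 ± 0.11 (SE), with an adjusted p of 0.0214 in edgeR. The adjusted p was between 0.0536 and 0.0644 with any one of rats 17, 18, 22, 23, 66 or 68 left out. It was 0.0775 for the same female-labelled comparison in the fit of all 24 rats. The log2 fold changes in these fits were −0.64 to −0.60. The log2 ratio of the means was −0.52 in form 1 and −0.74 in form 2. In a bulk liver sample, fewer cells of a type and less RNA per cell cannot be told apart.

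**Figure D3:**
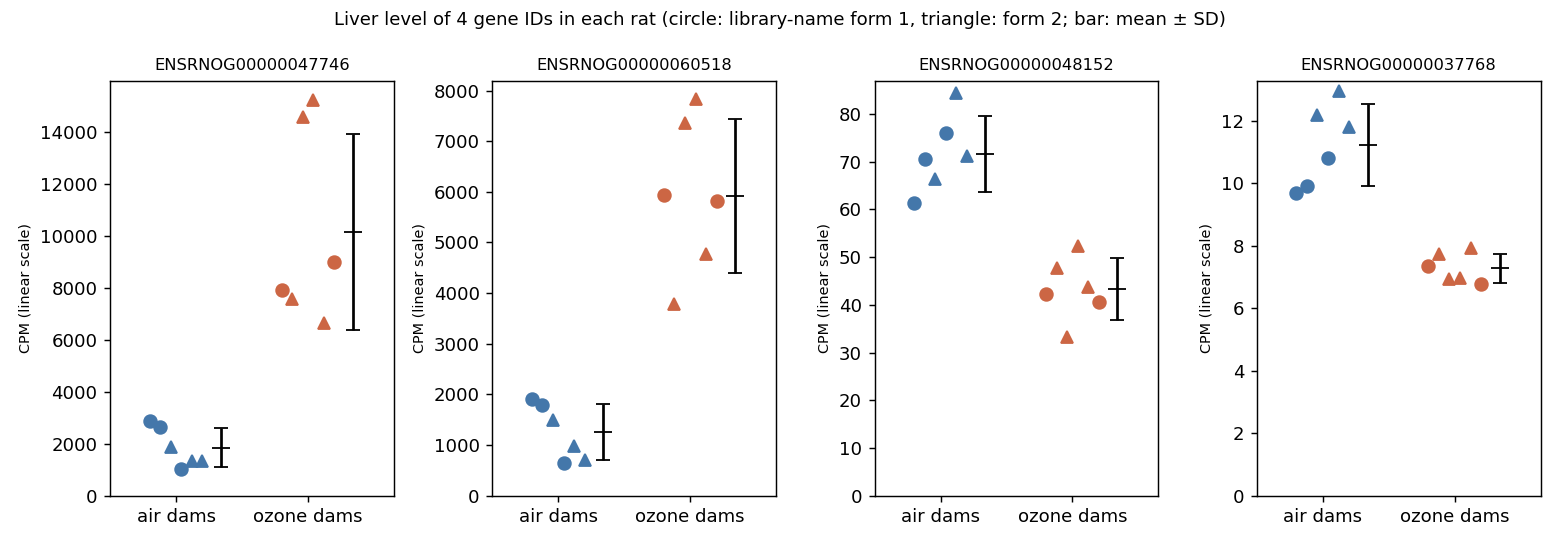
Level of 4 gene IDs in CPM (vertical, linear scale from 0, 1 panel per ID) in each air-dam and ozone-dam rat, with mean ± SD bars and marker shape for the library-name form. In the 2 left panels every ozone-dam rat lies above every air-dam rat, and in the 2 right panels every ozone-dam rat lies below.

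The 34 IDs hold fewer separate measurements than their number. Several IDs carried the same counts in all 12 libraries, so the 30 that rose came down to 20 distinct count rows. The 4 that fell were all distinct. With identical rows entered once, edgeR called 14 rows, 11 higher and 3 lower, and the adjusted p of the 20 rows reached 0.0649. The 24 distinct rows therefore did not all pass without the repeated copies. One block of 7 IDs with identical counts had a mean of 14.9 ± 5.57 CPM in the air-dam rats and 51.9 ± 13.8 CPM in the ozone-dam rats (SD, n = 6 each). Its air-dam values reached at most 24.5 CPM and its ozone-dam values started at 28.9 CPM, a rise of 1.79 ± 0.25 (SE) on the log2 scale with an adjusted p of 0.0102 in edgeR. A block of 4 IDs rose by 2.04 ± 0.34 (SE), from 0.797 ± 0.381 to 3.27 ± 1.24 CPM (SD, n = 6 each). Its lowest air-dam value, 0.347 CPM, lay near the 3-count floor of 0.218 to 0.326 CPM in the air-dam libraries. The size of that rise is therefore uncertain, and the block may have passed the count filter mainly through the ozone-dam rats. The same limit holds for the risen row with the lowest mean, 0.891 CPM over the 12 rats. A pair of 2 IDs rose by 1.37 ± 0.26 (SE), from 2.10 ± 0.773 to 5.43 ± 1.50 CPM (SD, n = 6 each). Identical rows made up 13 of the 30 that rose, against 71 of all tested genes (0.566%).

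Fractional counts were also frequent among the genes that rose. They were found in 23 of the 30 IDs that rose, or 13 of the 20 distinct rows, and in 1 of the 4 that fell, against 34.8% of all tested genes (4364). The levels of these 23 are uncertain wherever reads were divided between similar copies. The other 7 that rose had whole counts and no identical row. Their rises ran from 0.68 to 2.51 on the log2 scale with a median of 0.96, 3 of the 7 rose more than 2-fold, and their means ran from 8.81 to 5996 CPM. In 6 of these 7 the groups did not overlap.

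Most of the genes that rose or fell separated the 2 groups of rats completely. Over all tested genes the groups did not overlap in 195 (1.56%), 131 of them higher and 64 lower with maternal ozone. Among the called genes this held for 18 of the 20 distinct rows that rose and for 3 of the 4 that fell. The same values chose these genes, so this count describes them and is no test. Together the 20 distinct rows took 0.797%, 0.707%, 0.556%, 0.306%, 0.403% and 0.355% of counts in air-dam rats 15, 16, 17, 18, 22 and 23. In ozone-dam rats 63, 65, 66, 68, 69 and 72 they took 2.23%, 1.71%, 2.94%, 3.24%, 1.64% and 2.11%. Most of that share belongs to the 3 abundant rows.

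The rats of a group were ordered in part alike by these genes. Air-dam rat 15 was the highest air-dam rat in 14 of the 20 distinct rows that rose, and its mean rank among all 12 rats was 5.5. Air-dam rats 23 and 18 had the lowest mean ranks, 2.45 and 2.5. Rat 66 was the highest of all 12 in 8 rows and rat 68 in 6. Rat 65 was the lowest ozone-dam rat in 7 rows, rat 72 in 6 and rat 69 in 5. After the dam's exposure and the form were taken out, the 190 pairs among the 20 rows had a median correlation of 0.38, and 144 pairs (75.8%) were positive. Over all pairs of the 9487 genes with a mean count of 50 or more the median was 0.00, and 49.9% were positive. Without the 3 abundant rows the median among the rest was 0.37. The 20 rows were chosen in these rats for rising, and the other pairs mix genes of both directions, so the contrast is no test. Of the 20 rows, 17 had a mean count of 50 or more. The rows share libraries and in part reads.

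**Figure D4:**
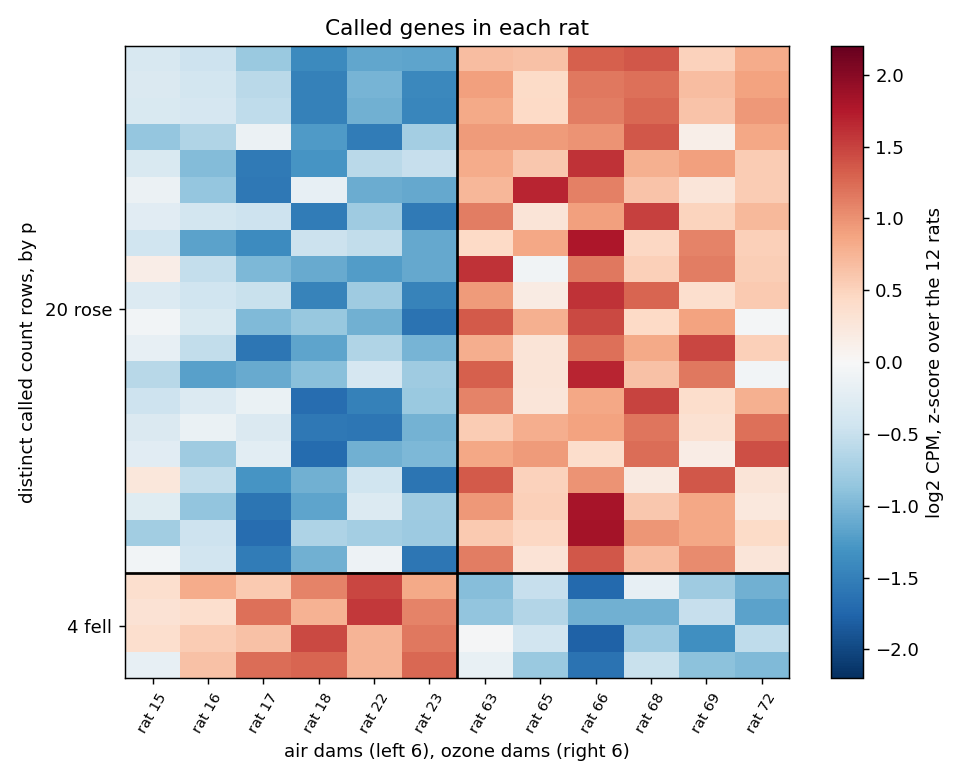
Log2 CPM of the 24 distinct called count rows (vertical, ordered by p within each direction) in each of the 12 rats (horizontal), as z-scores over the 12 rats. Air-dam rat 15 is the highest of its group in 14 of the 20 rows that rose, and the 4 rows that fell run the other way.

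The number of genes that passed varied with the rat left out. Without air-dam rat 23, edgeR called 0 genes, with 2053 at an unadjusted p under 0.05, a smallest adjusted p of 0.0536 and 105 genes at an adjusted p under 0.10. The sizes moved little without rat 23, with a median log2 fold change of 1.02 over the 20 distinct rows that rose and values of 2.40, 2.15, −0.75 and −0.64 for ENSRNOG00000047746, ENSRNOG00000060518, ENSRNOG00000048152 and ENSRNOG00000037768. Without air-dam rat 15 it called 135, of which 91 were higher and 44 lower, and all 34 IDs were among them. Leaving out rat 72, the most deeply sequenced, gave 64 calls, and leaving out rat 22 gave 14. Without rat 16 the count was 20, without rat 17 it was 23 and without rat 18 it was 19. Without rats 63, 65, 66, 68 and 69, in turn, it was 19, 31, 20, 19 and 29. Estimated in each group apart, the common biological coefficient of variation was 0.232 in the air-dam rats and 0.212 in the ozone-dam rats.

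**Figure D5:**
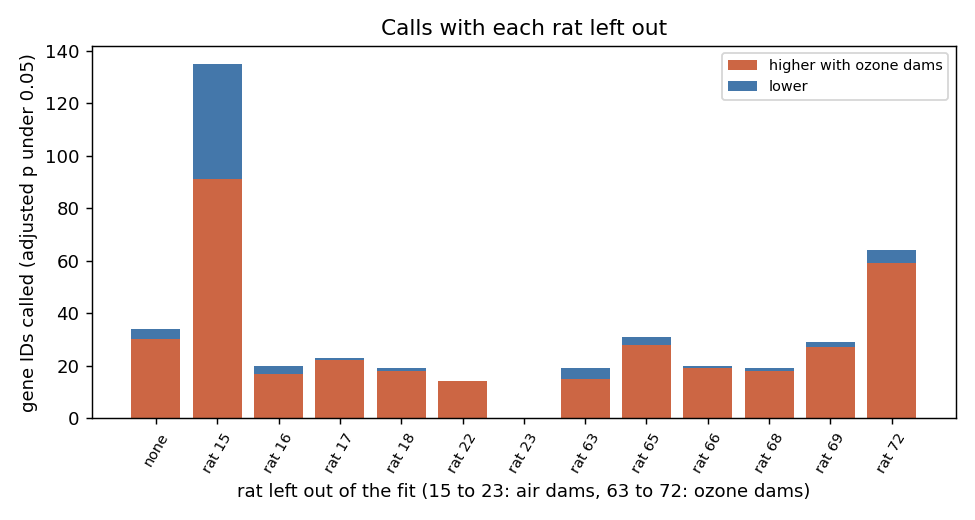
Number of gene IDs with an adjusted p under 0.05 in edgeR (vertical) with no rat or 1 rat left out (horizontal), stacked by direction. The count is 34 with all 12 rats, 135 without air-dam rat 15, 64 without ozone-dam rat 72 and 0 without air-dam rat 23.

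No gene passed the test for the library-name form. In the same edgeR fit, 0 genes (0%) were called for the form, with 237 at an unadjusted p under 0.05. Rats of form 1 alone gave 9 calls, all higher and 7 of them among the 34. There 440 of 12539 genes had an unadjusted p under 0.05 in edgeR, against 627 expected over the 12538 genes of the main comparison. Rats of form 2 alone gave 0 calls in edgeR, with 1453 genes at an unadjusted p under 0.05 and a smallest adjusted p of 0.0590. The median log2 fold change of the 20 distinct rows that rose was 0.80 within form 1 and 1.23 within form 2. For the 4 that fell it was −0.58 and −0.78. These genes were chosen on the same rats, so their sign within a form is no separate evidence. Over the 12237 genes tested in both forms, 67.8% had the same sign. With no term for the form, 66 genes were called, including all 34.

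The 12 rats labelled male, processed in the same way, gave many more calls. There 2670 of 12541 genes (21.3%) passed the test of maternal ozone against air. In a fit of all 24 rats, the maternal effect differed between the tables in 2994 of 12854 genes (23.3%). The differences passed for 11 of the 20 distinct rows that rose here and for 4 of the 4 that fell. These genes were chosen in the rats that enter the same difference, so the counts are not independent of the choice.

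In the rats labelled male, 19 of the 20 rows that rose, distinct within the 12 rats described here, were tested. The block of 4 IDs and another of these rows had the same log2 fold change of −0.0868 there (adjusted p 0.957 in edgeR). The 19 may therefore hold fewer separate measurements in that table. Of the 19, 12 had a negative log2 fold change there, 6 of them called, and 7 a positive one, 1 of them called. Their median was −0.12, beside −0.00 for all genes tested there. The 4 that fell all had a positive log2 fold change there, 2 of them called. The mean CPM of the male-labelled air-dam rats was above that of the air-dam rats described here in 19 of these 19 rows, with a median ratio of 2.63, beside 50.8% and a median ratio of 1.01 over the 12250 genes tested in both tables. Without male-labelled rat 48 it was above in 17, with a median ratio of 2.18. The rows were chosen for being lower in the air-dam than in the ozone-dam rats here, so this is a description. In 12 of the 19, or 10 without rat 48, the ozone-dam mean here was below the air-dam mean there.

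The 2 abundant IDs did not show a difference of effect that passed the test. ENSRNOG00000047746 ranged from 1401 to 29104 CPM in the male-labelled air-dam rats and from 2734 to 18796 CPM in the male-labelled ozone-dam rats. Its log2 fold change there was 0.92 ± 1.06 (SE) with an adjusted p of 0.580, and the difference between the tables was −2.12 ± 0.91 (SE) with an adjusted p of 0.0965 in edgeR. The value of 29104 CPM comes from rat 48 alone, and the next air-dam value was 5033 CPM. In the same rat ENSRNOG00000060518 stood at 18988 CPM, against 1383 to 4227 CPM in the other 5 male-labelled air-dam rats. It had a log2 fold change of 0.57 ± 0.99 (SE) there with an adjusted p of 0.720, and the difference was −2.07 ± 0.84 (SE) with an adjusted p of 0.0802 in edgeR.

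All 4 genes that fell here did differ between the tables, and the values of the 2 given by ID follow. They were chosen on rats that enter the same difference. ENSRNOG00000048152 ranged from 26.4 to 38.7 CPM in the male-labelled air-dam rats and from 21.9 to 64.1 CPM in the male-labelled ozone-dam rats. Its air-dam mean there, 30.5 ± 4.30 CPM (SD, n = 6), was below the ozone-dam mean here, and the difference of effect was 1.26 ± 0.24 (SE) with an adjusted p of 0.000924 in edgeR. ENSRNOG00000037768 averaged 6.67 ± 1.60 CPM in the male-labelled air-dam rats and 9.32 ± 1.79 CPM in the male-labelled ozone-dam rats (SD, n = 6 each). Its difference of effect was 1.11 ± 0.20 (SE) with an adjusted p of 0.000692 in edgeR. Within the male-labelled rats alone the log2 fold changes were 0.53 and 0.47, with adjusted p of 0.0656 and 0.0665 in edgeR.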

How the data were processed

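PolyA-selected liver RNA was sequenced on an Illumina instrument, per the labels. The submitters' processing notes name DESeq2, Partek, STAR 2.6.1d and the build rn6. For annotation release, filters and strand the entry is: not given in the sources used here. Expected counts (estimated counts per Ensembl gene ID, not normalized) were deposited by the authors, per the file headers. Reads of antisense or overlapping genes cannot be separated. Both tables together hold 23 columns that match no sample (12 in the one used), and these were not used.

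Counts were rounded (totals moved by at most 0.00038%), filtered with filterByExpr (minimum count 10, total 15) and tested with edgeR 4.0.16 in R 4.3.3 (TMM, robust quasi-likelihood, dam's exposure plus library-name form, Benjamini-Hochberg, threshold 0.05). CPM values printed for single genes use 1 TMM scale over all 24 libraries. Principal components and overlap of groups use TMM CPM of the 12 rats (log2, prior count 2); the component tests were chosen after the first fits. Correlations use residuals of that log2 CPM.

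The IDs given are the 2 with the smallest p in each direction, identical count rows taken once. The comparison of these 12 rats and all lists were chosen with earlier results of these data known, although the rule for the rats uses labels only. No list was tested (38), since 0 IDs matched a symbol. Alternatives were DESeq2 1.42.0, limma 3.58.1 (voom), other scalings, filters and designs, and leaving out each rat. Scripts were tested on simulated data.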

Additional observations from a re-analysis of the deposited data

Results flagged for a closer look

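The library of ozone-dam rat 72 held 36232100 counts (rounded), far above the other 5 ozone-dam libraries, with a gap to the nearest of 0.925 of the group's range. It also had the most detected genes of its group, 17030, with a gap of 0.792 of the range. The limit for a group of 6 is 0.625, 24 such checks were made, and chance alone passes it in about 1 in 20 groups.

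The maternal effect on 2 genes that fell in the rats labelled female differed from that in the rats labelled male, by the interaction test of edgeR over 24 rats. For ENSRNOG00000048152 the log2 fold change was higher by 1.26 in the rats labelled male, with an adjusted p of 0.000924. For ENSRNOG00000037768 it was higher by 1.11, with an adjusted p of 0.000692. Both genes were chosen on the female-labelled rats that enter the test.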

How the results depend on the processing

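The count of 34 called genes became 332 with DESeq2 (208 higher and 124 lower, 33 of the 34 among them) and 66 with no form term. It was 14 with identical count rows kept once and 1 for the same female-labelled comparison in a fit of all 24 rats. In edgeR it was 9 in form 1 alone and 0 in form 2 alone, with 440 and 1453 genes at an unadjusted p under 0.05. Leaving out 1 rat gave between 0 and 135. It was 35 with limma-voom, 34 with DESeq2's size factors, 26 with library totals, 49 without a filter, 28 with a mean count of at least 50 and, added after seeing the data, 31 without the robust option. The cause was not tested. Genes whose groups do not overlap numbered 2303 in form 1 alone and 1383 in form 2 alone, where fewer rats make this more frequent by construction, and between 211 and 476 with 1 rat left out. The PC1 difference lay between −37.1 and −29.2 with 1 rat left out. All 4 IDs lost their call without air-dam rat 23 (adjusted p 0.0536 in edgeR), in each form alone and in the 24-rat fit, with the same direction. ENSRNOG00000048152 also lost it without rat 22, and ENSRNOG00000037768 without any one of rats 17, 18, 22, 66 and 68. The count of 2994 for the difference between tables moved by under 1.5 times in its 3 alternatives.

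No paired analysis was possible because replicate numbers were given in accession order and no dam is named. Summed marker levels could not be computed without gene names. Depth limited what was detectable for genes near the 3-count floor.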
